A study of Mus musculus with 29 samples.

Results

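Microglia of old mice were followed in brain libraries of C57BL/6J animals of 17 to 20 months, 2 days after a stroke or a sham operation. A library entered as the sum of its counts over all cells that the authors' deposited annotation codes as Mg at its coarser level. These were 4166 of the 9363 cells in the 5 old day 2 libraries, of 29 libraries in the series. Stroke was induced by occluding the middle cerebral artery for a limited time. The sham group held 1 male and 1 female library, and the stroke group held 1 male and 2 female libraries, called here the first and the second female. The deposited cell tables mark the sham male and female M20 and M18, read as months of age. They mark the stroke male M17 and the first and second stroke female M18. Between the males, stroke and age cannot be told apart. Each library pooled 4 to 5 hemispheres, the ipsilateral side per the deposited cell tables, and was sorted for microglia, CD45-high leukocytes and endothelial cells before Drop-seq, a droplet method that counts transcripts cell by cell. Tissue was digested with papain in the presence of inhibitors of transcription and of purinergic and glutamate receptors. Young males of 8 to 10 weeks, 4 sham and 4 stroke libraries at day 2, serve for comparison, and 1 old female stroke library of day 14 is given by its values alone. No group carried a transgene or a gene deletion in the labels.

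Microglia are the resident macrophages of the brain. In the healthy tissue they express a set of receptors and transcription factors that set them apart from blood-derived macrophages, such as P2ry12, Tmem119, Cx3cr1 and Sall1. After ischaemia they are known to divide, to respond to interferons and to take up debris and lipid, with secreted and lysosomal genes such as Spp1, Lgals3 and Ctsb as usual markers of that state.

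The label was checked on the cells of each type pooled over the old day 2 libraries. P2ry12 stood at 2427 CPM (the gene's counts relative to all counts) in the cells coded Mg and at no more than 29.8 CPM in monocyte-derived and endothelial cells, but at 282 CPM in the cells coded BAM, 212 CPM in Bc, 163 CPM in Gran and 363 CPM in NK. The libraries held 326 to 956 microglia except for the sham female with 2385 and the second stroke female with 170, and 218749 to 1648935 counts. Microglia made up 28.8% and 77.7% of all cells in the sham libraries and 28.4%, 37.7% and 11.6% in the stroke libraries, and the numbers of cells sorted per type differed between the libraries that note them, so these shares were not compared. The first stroke female had a median of 0.646% mitochondrial counts per microglial cell, against 2.11% to 2.85% in the other libraries. At most 3 cell barcodes were shared between any pair of libraries.

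Over both directions, 289 of 10655 autosomal genes tested were called (2.71%) in old microglia between stroke and sham, 215 higher (2.02%) and 74 lower (0.695%). A gene was called at a Benjamini-Hochberg adjusted p under 0.05 in the quasi-likelihood test of edgeR, fitted on the 4 day 2 brain groups, old and young, which share 1 estimate of the spread. Levels are CPM after TMM scaling, and changes are log2 fold changes with their standard error (SE). Counts were summed over all microglia of a library, so a change in the share of a kind of cell and a change per cell cannot be told apart. Fitted on the 5 old libraries alone, with 3 residual degrees of freedom, the test called 0 of 7903 genes (0%), and 1549 (19.6%) had an unadjusted p under 0.05 in edgeR. DESeq2 on all 4 groups called 451, with 257 higher and 194 lower, so that the share of higher calls was 57.0% against 74.4% in edgeR, and its median log2 fold change over all genes was -0.21 against -0.03. Of the 289 genes, 281 entered the fit of the old libraries, and all 281 had the same direction there with an unadjusted p under 0.05 and adjusted p of up to 0.235. Leaving out the sham female ended all calls, leaving out the sham male left 14 calls with 12 of the 289 among them, and leaving out the first stroke female left 58 with 57 of the 289. All 289 kept their direction in each of these 3 fits.

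Genes were ranked if they were called, averaged 20 CPM or more in the higher group, did not overlap between groups and were not far higher in another cell type, leaving out predicted genes with Gm or Rik names and ribosomal, mitochondrial, haemoglobin and immune receptor genes. The 10 with the largest rise by fitted log2 fold change are Spp1, described below, and the 9 genes given here. For genes at 0 in sham the fitted value exceeds the lower bound printed here, so their place in the ranking is uncertain. Rrm2, a subunit of ribonucleotide reductase, was at 0 in both sham libraries and at 23.3, 38 and 74.4 CPM in the stroke male and the first and second stroke female. Every stroke library was therefore above sham, at least 24.4-fold as a group against a floor of 3 counts (adjusted p = 0.00743, edgeR). Aurka (at least 16.1-fold, adjusted p = 0.0351), a mitotic kinase, Aspm (at least 14.3-fold, adjusted p = 0.0368), a spindle protein, Cdca5 (at least 13.6-fold, adjusted p = 0.0177), needed for sister chromatid cohesion, and Shcbp1 (at least 13.3-fold, adjusted p = 0.014) were also at 0 in both sham libraries. Ccnb2, Kif11 and Hmmr, all mitotic genes, had 1, 1 and 2 counts over both sham libraries and 135, 86 and 147 over the stroke libraries (adjusted p = 0.00807, 0.00743 and 0.00807, edgeR). Xdh, xanthine dehydrogenase, had 1 count in sham and 95 in stroke, with 73.3 CPM in the stroke male and 13.9 in the second female (adjusted p = 0.00807).

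**Figure D1:**
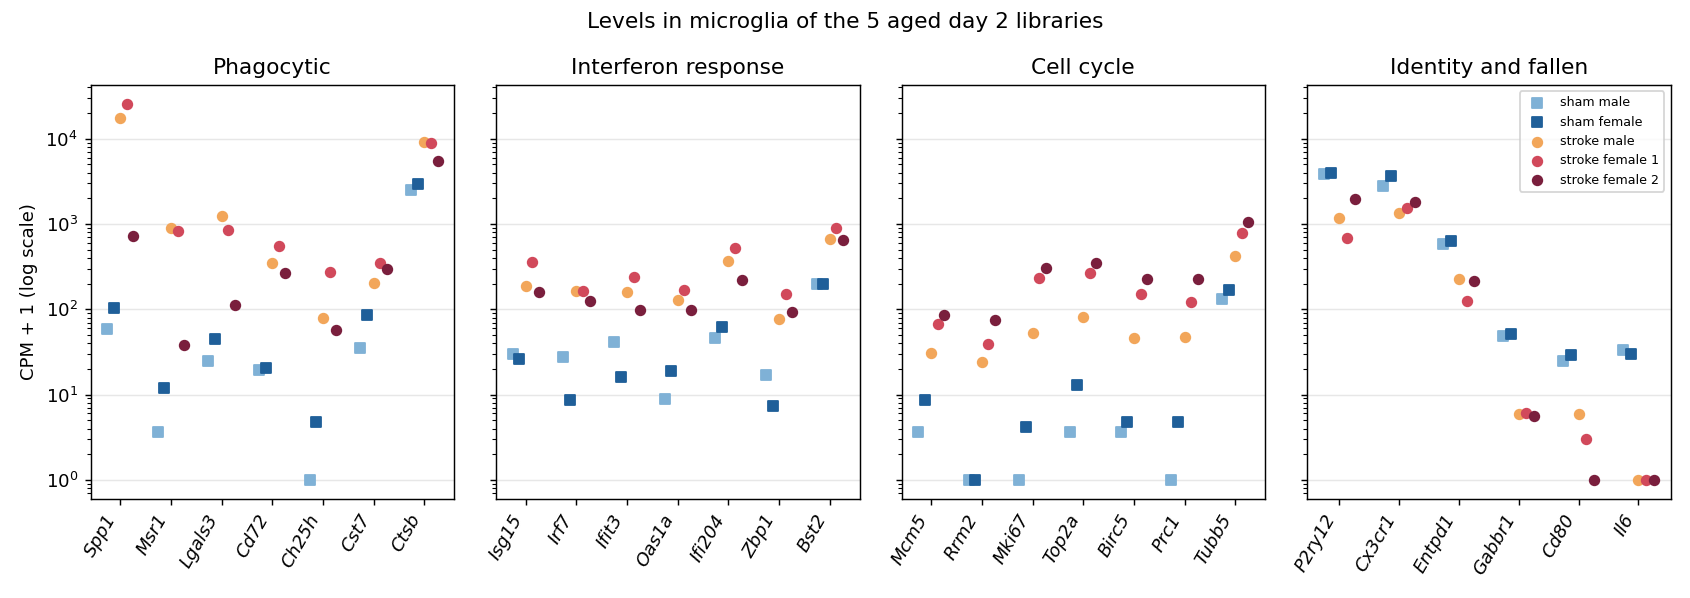
Levels of 27 genes in microglia of the 5 old day 2 libraries, as CPM + 1 on a log axis, with squares for sham and circles for stroke. In the second stroke female Spp1 was at 730 CPM against 17422 and 25757 in the other stroke libraries, while Mki67 and Top2a were highest there, and Il6 was at 0 in all 3 stroke libraries.

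Genes of phagocytic and lipid-handling microglia rose in part. Of 33 autosomal members tested from a list of 35, 10 were called higher and 0 lower, beside 2.02% of all genes called higher, and the median log2 fold change was 1.54 against -0.03 for all genes. Without the second stroke female 14 members were called higher, without the stroke male 6, without the first female 4, without the sham male 1 and without the sham female 0. Over all genes, 206 of 10547 were called higher without the second stroke female, 213 of 10592 without the stroke male and 54 of 10449 without the first female. In young microglia 29 of the 33 were called higher and 0 lower, beside 16% of all genes.

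Among the secreted products, Spp1, the cytokine osteopontin, stood at 58.4 and 103 CPM in the sham male and female and at 17422, 25757 and 730 CPM in the stroke male and the first and second stroke female. All stroke libraries were above sham, but the second female was lower than the other stroke libraries by more than the whole sham range (log2 fold change 7.47 ± 1.26 SE, adjusted p = 0.00807). Lgals3, galectin-3, was also lowest in the second female among the stroke libraries, with 23.9 and 44.4 CPM in sham and 1241, 850 and 112 CPM in stroke (4.35 ± 1.00 SE, adjusted p = 0.031). Lgals1, galectin-1, rose from 45.2 and 7.62 CPM to 378, 318 and 125 CPM (3.75 ± 0.83 SE, adjusted p = 0.027). Both galectins were far higher in the monocyte-derived cells of the same libraries, Lgals3 at 4651 CPM against 432 CPM in microglia and Lgals1 at 1772 against 153 CPM. These 4 values pool the sham and stroke libraries, whose shares of each cell type differ. Of the monocyte marker genes, Ccr2 and Ly6c2 had at most 3.33 CPM in stroke microglia, below both sham libraries, while the sum of all 13 markers was higher in each stroke library. The part of monocyte-derived cells in the galectin values was not tested. Apoe, the apolipoprotein of lipid transport, was not called, with 3239 and 4200 CPM in sham and 2693, 2224 and 1264 CPM in stroke (-0.85 ± 0.54 SE, adjusted p = 0.464). All 3 stroke values of Apoe lay below both sham values. Lpl, lipoprotein lipase, had stroke values of 79 to 483 CPM above sham values of 21.3 and 59.7 CPM and was not called (adjusted p = 0.0747).

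Among the receptors, Msr1, a scavenger receptor for modified lipoproteins, was at 2.66 and 10.8 CPM in sham and at 888, 822 and 37.2 CPM in stroke (6.11 ± 1.04 SE, adjusted p = 0.00817). The second female was again the lowest of the stroke libraries. Cd72 rose more evenly, from 18.6 and 19.7 CPM to 350, 549 and 265 CPM (4.34 ± 0.60 SE, adjusted p = 0.00743). Cd63, a tetraspanin of late endosomes, went from 829 and 977 CPM to between 2082 and 3121 CPM (1.58 ± 0.40 SE, adjusted p = 0.0454). The lipid-sensing receptor Trem2 and its adaptor Tyrobp were not called, at 1918 and 2091 CPM in sham against 1405 to 1830 CPM in stroke for Trem2, and at 2976 and 3312 against 2920 to 3444 CPM for Tyrobp.

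Lysosomal and cytosolic members that rose were Ch25h, Plin2, Cst7 and Ctsb. Ch25h, which makes 25-hydroxycholesterol, was at 0 and 3.81 CPM in sham and at 78.3, 272 and 55.8 CPM in stroke (5.56 ± 0.93 SE, adjusted p = 0.00807). Plin2, a coat protein of lipid droplets, was at 34.5 and 23.5 CPM in sham and at 829, 619 and 41.8 CPM in stroke (4.19 ± 0.88 SE, adjusted p = 0.0203). Its value in the second female lay just above the sham male. Cathepsin B (Ctsb) went from 2521 and 2928 CPM to 9123, 9019 and 5549 CPM (1.54 ± 0.37 SE, adjusted p = 0.0399), and the cystatin Cst7 from 34.5 and 85 CPM to 203, 351 and 297 CPM (2.16 ± 0.53 SE, adjusted p = 0.0402). The abundant Fth1 and Ctsd were above sham in every stroke library and not called (adjusted p = 0.203 and 0.627).

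The interferon response rose broadly. Of 35 autosomal members tested from a list of 37, 20 were called higher and 0 lower, beside 2.02% of all genes called higher, and 28 had every stroke library above both sham libraries, which held for 17.8% of all genes. The median log2 fold change was 2.76, against 3.20 in young microglia, where 26 were called higher, beside 16% of all genes. Higher calls over all genes were 206 of 10547 without the second stroke female, 213 of 10592 without the stroke male and 54 of 10449 without the first female. Without the second stroke female 22 members were called, without the stroke male 19, without the first female 7, without the sham male 2 and without the sham female 0.

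Among sensors and signalling genes, Irf7, the transcription factor that amplifies the interferon response, was at 26.6 and 7.62 CPM in sham and at 162, 162 and 125 CPM in stroke (3.43 ± 0.51 SE, adjusted p = 0.00743). The 3 stroke libraries were close to each other for this gene. Zbp1, a sensor of nucleic acids, went from 15.9 and 6.35 CPM to 74.9, 152 and 93 CPM (3.52 ± 0.61 SE, adjusted p = 0.00868), and the RNA helicase Dhx58 from 5.31 and 14.6 CPM to 56.6, 58.1 and 27.9 CPM (2.11 ± 0.48 SE, adjusted p = 0.0295).

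Among antiviral effectors, Isg15, a ubiquitin-like modifier, stood at 29.2 and 25.4 CPM in sham and at 187, 358 and 158 CPM in stroke (3.15 ± 0.48 SE, adjusted p = 0.00743). The groups did not overlap, and the first female was the highest. Bst2, which tethers budding virus, rose from 199 and 197 CPM to 666, 888 and 646 CPM (1.89 ± 0.34 SE, adjusted p = 0.00949). Ifi211 and Ifi207, of the family that senses DNA, rose by 4.17 ± 0.80 and 3.81 ± 0.63 SE on the log2 scale (adjusted p = 0.0185 and 0.00807). Oasl1 had 1 count over both sham libraries and 67 over the stroke libraries (adjusted p = 0.0283). Pooled over the old day 2 libraries, several of these genes were higher in monocyte-derived cells. Isg15 was at 797 CPM there against 141 CPM in microglia, and Oasl1 at 154 against 17.5 CPM. Bst2 was closer, at 549 against 460 CPM. The part of monocyte-derived cells in the interferon values was not tested. Ifitm3, with 85 and 47.6 CPM in sham and 525, 902 and 637 CPM in stroke, was not called (3.43 ± 1.00 SE, adjusted p = 0.0838), nor was Trim30a (adjusted p = 0.283). The feedback protease Usp18 went from 7.97 and 9.52 CPM to 50, 86.1 and 60.4 CPM (2.86 ± 0.56 SE, adjusted p = 0.014), and the feedback inhibitor Socs1 was at 9.01 to 16.7 CPM in stroke against 7.97 and 11.4 CPM in sham.

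Promoter sequence was read for the genes of this list. The 250 bases before each annotated start were taken from RefSeq (GRCm38.p6), and 26 of the 35 members were matched by symbol. The letters GAAA, any 2 bases and GAAA again, a short form of the interferon-stimulated response element, were searched on both strands with each overlapping match counted. They occurred before 15 of the 26 genes (57.7%), against 3.46% of all 27025 genes in the same table, and before 8 of the 13 matched genes that were called. The list was made of known interferon genes, so the difference from all genes could follow from that choice alone. The share among called members lay close to that of all matched members, so the letters did not set the called members apart. Of the called members with a match, the 4 with the largest rise are shown 5′ to 3′ on the strand of the gene, with the matches in capitals. In Ifit1 and in Oas1a 2 matches stand in the stretch, and those of Oas1a overlap. A match describes letters and does not show a bound site.
Ifi211, chr1:173913047-173913126, minus strand: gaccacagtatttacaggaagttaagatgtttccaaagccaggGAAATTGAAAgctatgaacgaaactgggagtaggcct
Ifi207, chr1:173741810-173741889, minus strand: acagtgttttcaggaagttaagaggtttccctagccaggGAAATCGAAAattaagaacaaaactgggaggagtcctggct
Ifit1, chr19:34640769-34640848, plus strand: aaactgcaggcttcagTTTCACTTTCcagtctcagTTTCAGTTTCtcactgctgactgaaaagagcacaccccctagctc
Oas1a, chr5:120907526-120907605, minus strand: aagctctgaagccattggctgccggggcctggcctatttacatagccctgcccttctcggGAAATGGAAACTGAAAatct

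The cell cycle lists held most of the remaining called members. For DNA replication, 19 of 32 autosomal members tested were called higher and 0 lower, beside 2.02% of all genes called higher, with a median log2 fold change of 2.77. For mitosis, 32 of 39 were called higher and 0 lower, and all 39 had every stroke library above both sham libraries, beside 17.8% of all genes. The mitotic median was 4.57, or 4.34 with the genes at 0 in sham set to their lower bound, against 5.77 in young microglia, where all 39 were called higher, beside 16% of all genes. Higher calls over all genes were 206 of 10547 without the second stroke female, 213 of 10592 without the stroke male and 54 of 10449 without the first female. Called mitotic members numbered 28 without the second stroke female, 36 without the stroke male, 11 without the first female, 4 without the sham male and 0 without the sham female, and those of replication 12, 21, 4, 1 and 0.

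Among licensing factors and helicase subunits, which prepare origins for replication, Cdc6 was at 0 in sham and at 9.99, 21 and 23.2 CPM in stroke, at least 11.5-fold higher (adjusted p = 0.0254). Mcm5, a subunit of the replicative helicase, rose from 2.66 and 7.62 CPM to 30, 66.1 and 83.7 CPM (3.20 ± 0.63 SE, adjusted p = 0.014). The stroke male was the lowest of the stroke libraries for both genes. Cdt1 was the exception among the licensing factors named, with 40, 33 and 37.2 CPM in the stroke male, first and second female against 2.66 and 6.35 CPM in sham (2.77 ± 0.49 SE, adjusted p = 0.00895). In the synthesis role, Tk1, thymidine kinase, had 3 counts over both sham libraries and 118 over the stroke libraries (adjusted p = 0.00965). Pcna, the sliding clamp, was at 69.1 and 167 CPM in sham and at 416, 509 and 381 CPM in stroke and missed the threshold (1.84 ± 0.47 SE, adjusted p = 0.0506). Ccne1, cyclin E1, was at 0 in sham and rose at least 9.68-fold (adjusted p = 0.0375), while Ccnd1, cyclin D1, was at 149 and 215 CPM in sham and at 138, 258 and 195 CPM in stroke (adjusted p = 0.948).

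Among mitotic genes, Mki67, the usual marker of dividing cells, was at 0 and 3.17 CPM in sham and at 51.6, 229 and 302 CPM in stroke (6.20 ± 1.35 SE, adjusted p = 0.0244). Top2a, the topoisomerase that untangles chromosomes, went from 2.66 and 12.1 CPM to 79.9, 262 and 344 CPM (4.57 ± 0.89 SE, adjusted p = 0.014). Both genes were lowest in the male and highest in the second female among the stroke libraries. The kinesin Kif20a was at 0 in sham and rose at least 14.0-fold (adjusted p = 0.00895), and Ube2c, the ubiquitin-conjugating enzyme of the anaphase-promoting complex, had 2 counts in sham and 140 in stroke (adjusted p = 0.00807). Tubb5, a tubulin, rose from 133 and 166 CPM to 416, 785 and 1064 CPM (2.32 ± 0.50 SE, adjusted p = 0.0237). H2afx, a histone variant, rose by 2.90 ± 0.64 SE (adjusted p = 0.0255), and Hmgb2, an abundant chromatin protein, had stroke values of 348 to 562 CPM above sham values of 167 and 176 CPM without passing the test (adjusted p = 0.149).

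A pair of motifs known from cell cycle promoters was searched in the same windows. TTTNNCGC, a short form of the E2F site, occurred before 5 of 23 matched replication genes (21.7%) and 4.94% of all genes. TTTGAA, known as the CHR, occurred before 12 of 32 matched mitotic genes (37.5%) and 18.3% of all genes, and before 11 of the 27 matched mitotic genes that were called. Both lists were made of known cell cycle genes, so the differences from all genes could follow from that choice alone. Matches of the E2F form before a replication gene and of the CHR before 2 mitotic genes are shown, with matches in capitals. Matches on the opposite strand are capitalised as their reverse complement, and in Mcm5 a match on each strand overlaps.
Mcm5, chr8:75109324-75109403, plus strand: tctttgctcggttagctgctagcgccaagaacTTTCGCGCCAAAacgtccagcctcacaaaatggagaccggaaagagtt
Mki67, chr7:135716435-135716514, minus strand: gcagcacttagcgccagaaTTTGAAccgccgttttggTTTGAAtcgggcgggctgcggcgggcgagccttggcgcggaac
Ube2c, chr2:164769849-164769928, plus strand: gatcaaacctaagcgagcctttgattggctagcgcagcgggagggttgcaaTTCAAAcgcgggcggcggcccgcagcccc

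**Figure D2:**
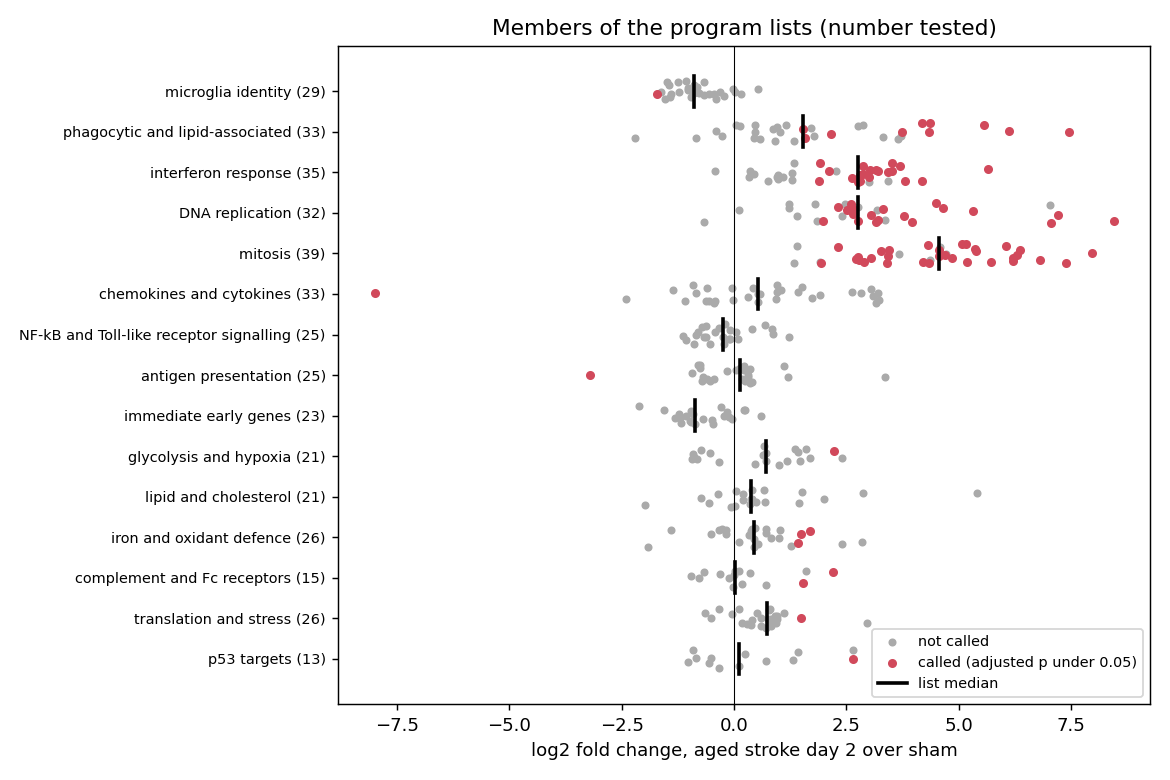
Log2 fold change of each autosomal member tested in 15 program lists, stroke day 2 over sham in old microglia, with the number tested in brackets, called members in red and a black bar at the list median. Called members gather in the mitosis, DNA replication, interferon and phagocytic lists, and the identity list lies mostly below 0.

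Of the genes of microglial identity, 1 was called lower and 0 higher in edgeR, beside 0.695% of all genes called lower. The lower calls numbered 5 without the third young stroke library, 6 by DESeq2, which called 194 of 10655 genes lower, and 17 in the edgeR fit of the 5 old libraries with the year of their run code as a term, which called 337 of 7903 genes lower. This run year is a reading of digits in the file names, and what the digits stand for is not stated. No identity gene was called by edgeR without the first stroke female, without either old sham library, or in the fit of the 5 old libraries alone, where 20 of the 29 had an unadjusted p under 0.05. Of 29 autosomal members, 22 had every stroke library below both sham libraries, which held for 15.6% of all genes, and the median log2 fold change was -0.89. Entpd1, the surface enzyme CD39 that degrades extracellular ATP, fell from 582 and 635 CPM to 226, 123 and 214 CPM (-1.71 ± 0.36 SE, adjusted p = 0.019). P2ry12, the purinergic receptor that directs microglial processes, was at 3913 and 3968 CPM in sham and at 1166, 691 and 1980 CPM in stroke and was not called (-1.63 ± 0.71 SE, adjusted p = 0.254). Cx3cr1, the fractalkine receptor, was at 2784 and 3618 CPM against 1356 to 1813 CPM (adjusted p = 0.538). Sall1, a transcription factor of microglial identity, was at 114 and 97.1 CPM in sham and at 50, 30 and 60.4 CPM in stroke (adjusted p = 0.287). Cst3, a secreted protease inhibitor, was at 48684 and 53568 CPM in sham and at 15150 to 23098 CPM in stroke (adjusted p = 0.239). Tmem119 overlapped between groups, with 1548 CPM in the second female above both sham values of 1419 and 1308 CPM. In young microglia 13 of the 29 were called lower and 0 higher, beside 14.8% of all genes, with a median of -1.09.

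By the same rule, the 10 genes with the largest fall were led by Il6. This cytokine was at 31.9 and 29.2 CPM in sham, 58 counts in all, and at 0 in all 3 stroke libraries, at least 17.97-fold lower (adjusted p = 0.00743). Il1rl1, the receptor of interleukin-33, had 36 counts in sham and 2 in stroke (adjusted p = 0.0164). Gabbr1, a subunit of the GABA-B receptor, fell from 47.8 and 50.8 CPM to 5, 5.01 and 4.65 CPM (-3.29 ± 0.45 SE, adjusted p = 0.00743). Its stroke values rest on 3, 5 and 1 counts, so their closeness says little about the spread. Cd80, a costimulatory ligand for T cells, fell from 23.9 and 27.9 CPM to between 0 and 5 CPM (-3.20 ± 0.63 SE, adjusted p = 0.014). Ypel2, Fmo5, Zfp658, Tspan18 and Ank2 were also among the 10, with log2 fold changes of -3.52 to -2.53 and stroke values of at most 18.6 CPM. Il6 also fell in young microglia, from 9.82 to 27.3 CPM in the sham libraries to between 0 and 6.94 CPM (-1.92 ± 0.52 SE, adjusted p = 0.0145).

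In the edgeR fit of the 4 groups 0 of 13 chemokines were called, while the fit of the old libraries with the run year as a term called 4. Over the whole list of 33 chemokines, cytokines and their receptors, 0 were called higher in the former, 2 by DESeq2, 3 without the second stroke female, 4 with a replicate block, 6 with no filter on low counts and 6 with the run year as a term. The lower calls were 1, Il6, in the fit of the 4 groups, 4 by DESeq2 and 5 with the run year as a term. Over all genes, DESeq2 called 257 of 10655 higher and 194 lower. The fit with the run year as a term called 452 of 7903 higher and 337 lower. Higher calls over all genes were 206 of 10547 without the second stroke female, 233 of 10655 with a replicate block and 302 of 17762 with no filter. Of 9 receptors tested, 5 had every stroke library below sham, beside 15.6% of all genes, and 0 were called in the fit of the 4 groups, with 6 at an unadjusted p under 0.05 in the fit of the old libraries alone. Of the 13 chemokines, 5 had every stroke library above sham, beside 17.8% of all genes. The median of the 13 was 1.73, and 5 of the 12 in the fit of the old libraries alone had an unadjusted p under 0.05, beside 19.6% of all genes. Ccl12, a ligand of the receptor Ccr2, was at 433 and 291 CPM in sham and at 1977, 4250 and 2998 CPM in stroke (3.09 ± 0.79 SE, adjusted p = 0.0501). Ccl2 was at 101 and 153 CPM in sham and at 416, 823 and 195 CPM in stroke (adjusted p = 0.131). Ccl3 and Ccl4 overlapped between groups, and the second female held the lowest values of all 5 libraries, 344 and 293 CPM. Il1b was at 162 and 116 CPM in sham and at 71.6, 0 and 0 CPM in stroke (-2.41 ± 1.88 SE, adjusted p = 0.581). Of 25 genes of NF-kB and Toll-like receptor signalling, 0 were called in the edgeR fit of the 4 groups. DESeq2 called 1 lower, edgeR without the first young sham library 1 lower, and the fit with the run year as a term 1 higher and 2 lower. Without that young library edgeR called 92 of 10337 genes lower. Of the members, 4 of the 20 members in the fit of the old libraries alone had an unadjusted p under 0.05 there, a share close to the 19.6% of all genes.

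Metabolic and other programs gave few calls, read beside 2.02% of all genes called higher, and with either old sham library left out none of their members was called higher. In the list of glycolysis and hypoxia genes, 1 of 21 autosomal members, and 1 of its 11 glycolytic enzymes, was called by edgeR. DESeq2 called 3 higher and 1 lower, and the fit with the run year as a term 5 higher and 1 lower. Over all genes DESeq2 called 257 of 10655 higher and 194 lower, and the run year fit 452 of 7903 higher and 337 lower. Every stroke library was above sham in 12 of the 21, beside 17.8% of all genes, and 10 of 19 had an unadjusted p under 0.05 in the fit of the old libraries alone, beside 19.6%. Pkm, pyruvate kinase, rose from 135 and 182 CPM to 766, 783 and 697 CPM (2.23 ± 0.34 SE, adjusted p = 0.00743). The 3 stroke libraries lay close together for Pkm, and the median of the list was 0.72. In iron and oxidant defence, 3 of 26 were called higher, which fell to 0 without the stroke male, without the first stroke female, without the fourth young sham library and with sex as a term. The 3 are of the thioredoxin system or a peroxidase fed by it: Prdx1 (1.69 ± 0.41 SE), Txn1 and Txnrd1 (1.43 ± 0.35 SE), with adjusted p = 0.0377, 0.0368 and 0.0399. Txn1, thioredoxin, went from 109 and 114 CPM to 323, 360 and 256 CPM. Among complement and Fc receptors, 2 of 15 were called higher by edgeR, and 0 without the first stroke female. C3ar1, the receptor of complement fragment C3a, rose from 197 and 202 CPM to 738, 668 and 311 CPM (1.53 ± 0.36 SE, adjusted p = 0.0368), and the activating Fc receptor Fcgr4 rose by 2.20 ± 0.42 SE (adjusted p = 0.0124). Cdkn1a, the cell cycle inhibitor p21 and the 1 member of 13 tested p53 targets called, was at 63.8 and 88.9 CPM in sham and at 373, 874 and 204 CPM in stroke (2.66 ± 0.61 SE, adjusted p = 0.0322), a call that was lost without the first stroke female. Eif5a was the 1 member of 26 called in translation and stress (1.48 ± 0.37 SE, adjusted p = 0.0434), and that call was lost in many other fits, among them those with sex as a term, with a replicate block, with no filter on low counts and without the first or the second stroke female. In lipid and cholesterol metabolism, 0 of 21 were called in the edgeR fit of the 4 groups. With the run year as a term, no filter on low counts, a replicate block or without the second stroke female, 1 was called higher. Those fits called 452 of 7903, 302 of 17762, 233 of 10655 and 206 of 10547 genes higher. In the edgeR fit of the old libraries alone 2 of the 15 had an unadjusted p under 0.05, beside 19.6% of all genes.

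Antigen presentation showed 1 call by edgeR, the fall of Cd80 given above, among 25 autosomal members, beside 0.695% of all genes called lower. DESeq2 called 3 lower and the fit with the run year as a term 2, and 0 were called with a replicate block, in cells of at least 800 counts and without the first stroke female or either sham library. Over all genes, DESeq2 called 194 of 10655 lower and the fit with the run year as a term 337 of 7903. The class II genes H2-Aa and Cd74 overlapped between groups. H2-Aa was at 109 and 19.7 CPM in sham and at 6.66, 19 and 107 CPM in stroke, and Cd74 at 372 and 132 against 117, 102 and 218 CPM. Their log2 fold changes were -0.71 ± 1.47 and -0.81 ± 0.94 SE (adjusted p = 0.887 and 0.742). The male sham and the second stroke female, which share the later run code in their file names, held the highest values of both genes. B cell marker genes summed to 221 and 274 CPM in these libraries, and to 110 to 225 CPM in the others, and their part in the class II values was not tested.

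The order of the 3 stroke libraries varied with the program, which is described here without a test. All 39 mitotic genes were lowest in the stroke male, which held for 30.9% of all genes, and 29 were highest in the second female (36% of all genes). Interferon genes were highest in the first female in 32 of 35 (31.8% of all genes), and phagocytic genes lowest in the second female in 24 of 33 (42.9% of all genes). As a program level, the median over members of log2(CPM + 1) minus the sham mean, mitosis stood at 2.87, 4.402 and 4.65 in the male and the first and second female. The phagocytic list stood at 1.75, 1.73 and 0.60, and the interferon list at 2.39, 3.16 and 1.70. The immediate early genes, which respond within minutes to stimulation and to cell isolation, stood at -0.37, -0.45 and -2.88, and 22 of 23 were lowest in the second female. Fos, for instance, was at 858 and 1038 CPM in sham and at 723, 655 and 69.7 CPM in stroke, and 0 of the 23 were called by edgeR. DESeq2 called 1 lower and the fit with the run year as a term 7, beside 194 of 10655 and 337 of 7903 genes. In the edgeR fit of the old libraries alone 7 of 21 had an unadjusted p under 0.05, beside 19.6% of all genes.

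**Figure D3:**
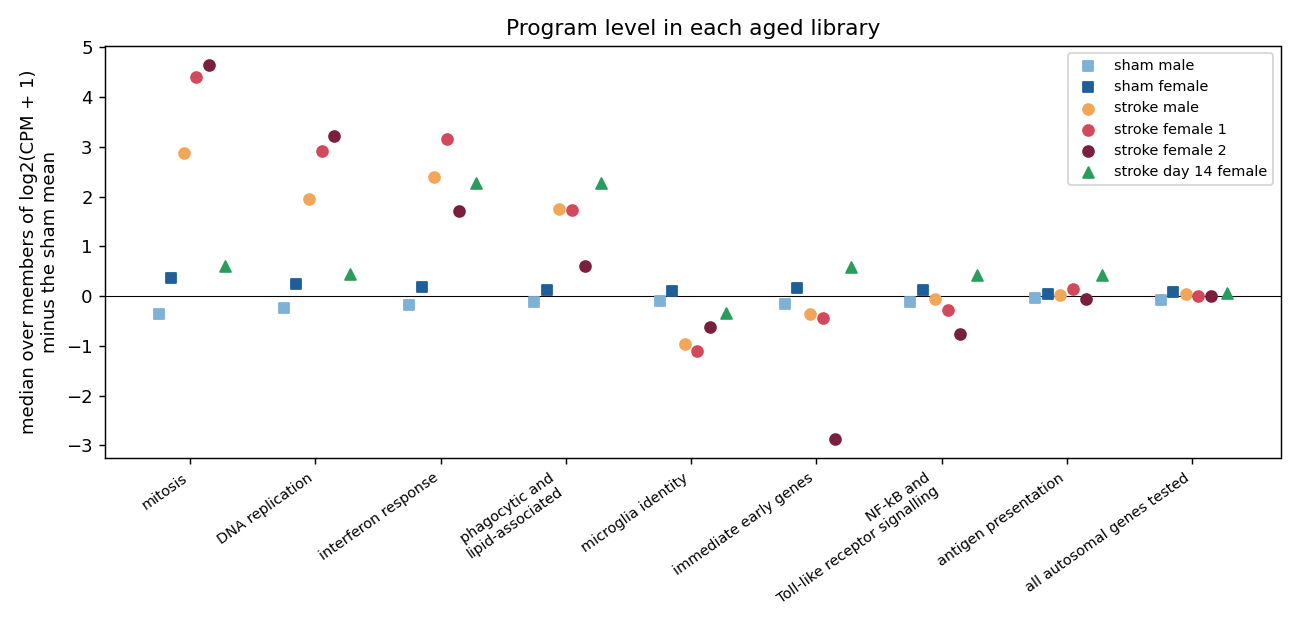
Program level in each old library, the median over members of log2(CPM + 1) minus the mean of both sham libraries, for 8 lists and all autosomal genes tested. Among the circles for stroke day 2, the male is lowest for mitosis at 2.87 and the second female lowest for the phagocytic list at 0.60 and for immediate early genes at -2.88, while the triangle for day 14 is near sham for mitosis at 0.61.

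The second stroke female and the sham male carry a code with higher leading digits in their file names than the other 3 old libraries. These digits are read here as the year of a run, so the higher is called the later code. What the code stands for is not stated. Differences within each code are given with no test. Within the later code the stroke library is female and marked M18, and the sham library is male and marked M20. Stroke, sex and age cannot be told apart there. The median difference for mitosis was 3.001 within the earlier code and 4.88 within the later, for the phagocytic list 1.62 and 0.61, and for the interferon list 2.66 and 1.27. With the year of the code as a term in the fit of the 5 old libraries, 789 of 7903 genes were called (9.98%), 452 higher and 337 lower. This fit has fewer residual degrees of freedom than the 3 of the old libraries without the term. Of the 281 genes of the main comparison that entered it, 273 were among those called. The second stroke female is the only stroke library of its code, so its differences from the other stroke libraries and the code cannot be told apart.

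The deposited finer annotation splits the microglia into codes Mg1 to Mg8, whose meaning is not given in the sources used here. Mg1 and Mg2 together made up most sham microglia, with 56.8% and 16.4% in the male and 60.04% and 24.8% in the female. In stroke, Mg4 held 41.7%, 46.8% and 11.8% in the male and the first and second female, against 0% and 0.126% in sham. Mg5 held 8.28%, 20.1% and 25.9%, against 0% and 0.419% in sham, and the order of the stroke libraries for Mg5 was that of the mitotic genes. No test was made, since the codes were built from the same genes.

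Levels within the codes are given as a description, as CPM of the summed counts. Pooled over the stroke libraries, Mki67 was at 682 CPM in 263 cells of Mg5 and at 29.1 CPM in 603 cells of Mg4. Spp1 was at 37432 CPM in Mg4 and at 1895 CPM in Mg5. Within Mg4, Spp1 stood at 30616 CPM in 136 cells of the male, at 43516 CPM in 447 cells of the first female and at 1369 CPM in 20 cells of the second female. Within Mg8 the order was another, with Spp1 at 336 CPM in 51 cells of the male, 255 CPM in 60 cells of the first female and 846 CPM in 37 cells of the second female. Within Mg5, Mki67 stood at 387, 732 and 769 CPM in 27, 192 and 44 cells of the same libraries. Isg15 was highest in Mg3, at 776 CPM in 174 cells, and P2ry12 in Mg1, at 3366 CPM in 154 cells.

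**Figure D4:**
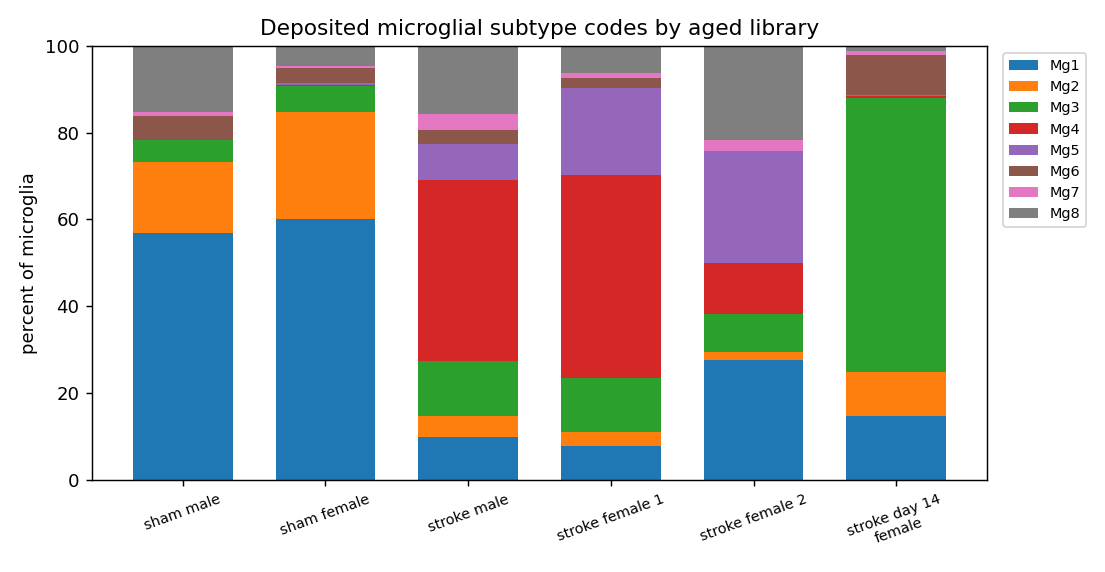
Percent of microglia in each deposited subtype code, per old library, as stacked bars that start at 0. Mg1 and Mg2 fill most of the sham bars, Mg4 is the largest code in the stroke male at 41.7% and the first female at 46.8%, and Mg3 holds 63.3% in the day 14 library.

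All 289 genes called in old microglia had the same direction in young microglia, and 282 of them were called there, 97.6% of the calls in old and 8.58% of the 3287 calls in young microglia (30.8% of genes tested). Across autosomal genes, which are not independent replicates, Pearson's r between both responses was 0.557, and the direction was shared by 73.4%. The difference of the responses, tested in the same fit, was called for 0 of 10655 genes (0%), with 609 at an unadjusted p under 0.05 in edgeR and 1 call by DESeq2. The median SE was 0.49 for a log2 fold change in old microglia and 0.62 for the difference. Young libraries were all male and were deposited in separate tables, so age, sex mix and table cannot be told apart. Among the young stroke libraries the third held only 58 microglia with 26321 counts, and without it 349 genes were called in old microglia.

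In the phagocytic list the median was 1.54 in old and 2.95 in young microglia, and 12 of 33 members had an unadjusted p under 0.05 for the difference, beside 609 of 10655 genes, with adjusted p of at least 0.739. In the interferon list 7 of 35 had such a p. Spp1 rose by 7.47 ± 1.26 SE in old and 11.84 ± 1.10 SE in young microglia, a difference of -4.38 ± 1.24 SE (unadjusted p = 0.00301, edgeR). The young sham libraries held 0 to 4.39 CPM of Spp1 against 58.4 and 103 CPM in old sham, and young stroke libraries held 8738 to 20381 CPM. Cst7 stood at 8.78 to 24.5 CPM in young sham against 34.5 and 85 CPM in old sham, and at 30.8 to 334 CPM in young stroke against 203 to 351 CPM in old stroke. The young stroke ranges include the third library, with 58 microglia and 26321 counts, where a level can rest on very few counts. Apoe stood at 699 to 1393 CPM in young sham against 3239 and 4200 CPM in old sham, and at 925 to 4995 CPM in young stroke against 1264 to 2693 CPM in old stroke. Igf1, a growth factor, rose by 3.80 ± 0.68 SE in young microglia and changed by -0.41 ± 0.82 SE in old microglia (unadjusted p = 0.00113 for the difference, edgeR). The old value of Igf1 rests on 28 counts in sham and 19 in stroke, and turned to 0.73 without the sham female and to 0.032 with a replicate block.

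The sham levels were counted over the lists. In 22 of 33 phagocytic members both old sham libraries lay above all 4 young sham libraries, and in 0 below all of them, while old sham was above for 8% of all genes. After stroke, 0 of the 33 had every old library above all young ones, beside 5.08% of all genes. The interferon list had 19 of 35 members higher in old sham and 8 of 35 higher in old stroke, and antigen presentation 11 of 25 and 5 of 25, while mitosis had 1 and 0 of 39. These counts set levels from separate tables side by side and carry no test. The young stroke libraries among them include the one with 58 microglia.

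**Figure D5:**
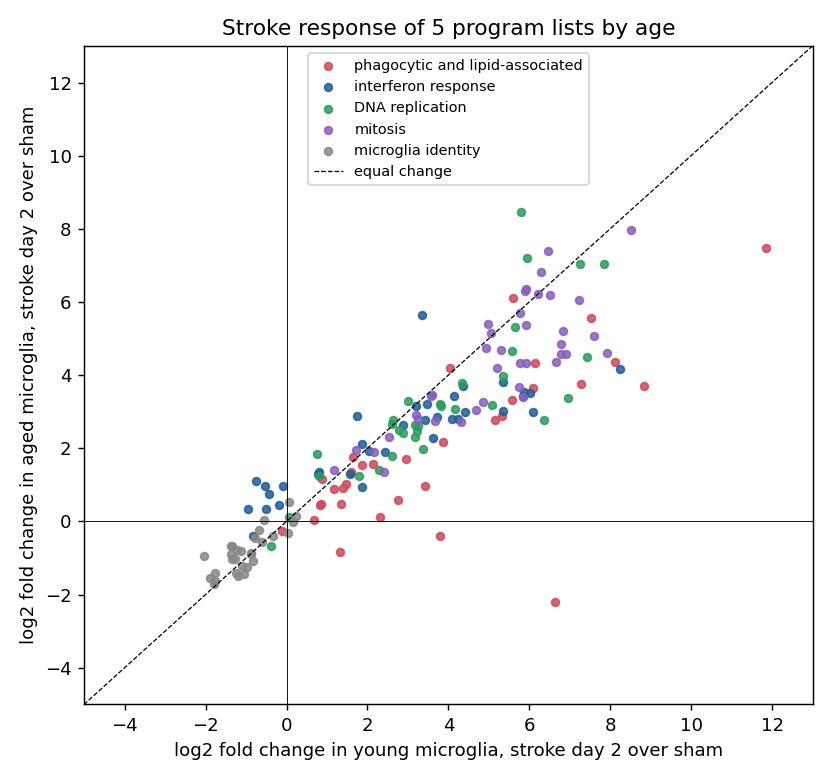
Log2 fold change of stroke day 2 over sham in young (horizontal) and old (vertical) microglia for members of 5 lists, with a dashed line of equal change. Most phagocytic members lie below the line, with Spp1 at 11.84 and 7.47, while identity genes lie mostly below 0 on both axes.

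Marker genes of other cell types were summed in the microglia of each library. Of those that passed the count filter, 0 were called in the edgeR fit of the 4 groups, beside 2.71% of all genes. Markers under the filter, among them Camp, Ngp, Cd3e and Cldn5, were not tested and could not be called. The fit of the old libraries with the run year as a term called Fn1 higher (adjusted p = 0.0191) and Mag, Slc1a3 and Csf3r lower (adjusted p = 0.0306, 0.0315 and 0.0381). Monocyte markers, 13 genes, summed to 39.9 and 52.7 CPM in sham and to 122, 98.1 and 214 CPM in stroke, with 17083 CPM in the monocyte-derived cells themselves and F10 at 0 in all 5 libraries. Fn1 made up 82.1 CPM of the sum in the first female, and Plac8 and Chil3 83.7 and 74.4 CPM of that in the second, while the sum of the stroke male was spread over Chil3, Hp, Ms4a4c and Fn1 with 38.3, 21.6, 20 and 16.7 CPM. Ms4a4c was above sham in every stroke library, with 2.66 and 3.81 CPM in sham and 20, 15 and 37.2 CPM in stroke. Ccr2 went the other way, with 13.3 and 6.35 CPM in sham and 3.33, 0 and 0 CPM in stroke, as did Ly6c2, with 7.97 and 16.5 CPM against 3.33, 0 and 0 CPM, and Ly6i. Neutrophil markers summed to 138 and 179 CPM in sham and to 1925, 68.1 and 130 CPM in stroke, so the stroke male stood apart. Csf3r alone made up both sham sums, and 67.1 and 116 CPM of those in the first and second stroke female. In the stroke male S100a8 and S100a9 held 886 and 540 CPM. Markers of border-associated macrophages summed to 90.3 and 38.1 CPM in sham and to 94.9, 110 and 51.1 CPM in stroke. Oligodendrocyte markers summed to 109 and 146 CPM in sham and to 61.1 to 79 CPM in stroke, and astrocyte markers to 154 and 201 CPM in sham and to 73.1 to 118 CPM in stroke, so both lay below sham in every stroke library. A single gene made up most of each sham sum, Slc1a3 with 151 and 198 CPM of the astrocyte markers and Mag with 87.7 and 105 CPM of the oligodendrocyte markers. T and NK cell markers summed to 207 and 3.81 CPM in sham and to 16.02 to 102 CPM in stroke. Endothelial markers stayed at or below 60.4 CPM, with Cldn5, Flt1, Slco1a4 and Cdh5 at 0 throughout. Haemoglobin and other red cell genes summed to 2416 CPM in the sham female and to 0 in the other libraries. Counts of Ccr2, Ly6c2, Plac8, S100a8 or S100a9, at 0.5 or more, were found in 9 and 10 microglia of the sham male and female and in 3, 0 and 10 of the stroke libraries. These were 2.74% and 0.419% of the microglia in sham and 0.92%, 0% and 5.88% in stroke. In the stroke male the 3 cells stand beside 532 counts of S100a8 and 324 of S100a9. Without such cells in the old and young libraries, 293 genes were called. The part of other cell types in the calls was not tested.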

How the data were processed

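Drop-seq libraries of sorted mouse brain cells were used. Per the file headers and values, the authors deposited estimated counts per gene and cell, not scaled and mostly not whole, with the count of genes detected and the percent of mitochondrial counts per cell. The submitters' processing notes name mm10 and Seurat; aligner and quantification are not given in the sources used here. Counts were summed per library over cells coded Mg and rounded. Old and young tables were joined on 19577 shared genes. The 4 day 2 brain groups (13 libraries, 9 residual degrees of freedom) were fitted with edgeR 4.0.16 (R 4.3.3, TMM, filterByExpr, quasi-likelihood test), with p-values adjusted over 11096 genes and calls counted over autosomal genes at an adjusted p under 0.05. Only autosomal genes are reported, since the groups differ in sex. P-values measure only the spread between these pooled libraries, and an exact permutation test of 3 against 2 cannot go below 0.1.

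The members and gene lists were chosen with earlier results of these data known. Named genes are the 10 highest and 10 lowest called genes that averaged 20 CPM or more in the higher group, with groups that do not overlap and no other cell type at over 10 times their level, leaving out Gm, Rik, ribosomal, mitochondrial, haemoglobin and immune receptor genes, and, per list and role, up to 3 called and 2 abundant uncalled members. Alternatives were DESeq2 1.42.0, no filter, library size alone, sex or run year as a term, a replicate block, the old libraries alone, other cell filters, rounding up, and leaving out each library. The scripts were tested on simulated data. Some results are not reported here.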

Additional observations from a re-analysis of the deposited data

Results flagged for a closer look

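The old stroke library of day 14, a single female library outside the comparison, stood far above both sham libraries of day 2 for several members, with no test possible. Its program level, the median log2(CPM + 1) minus the sham mean, was 2.27 for the phagocytic list and 2.28 for the interferon list. Apoe stood at 39398 CPM there, against 3239 and 4200 CPM in sham and 1264 to 2693 CPM at day 2 of stroke. Cst7 stood at 2122 CPM and Spp1 at 1074 CPM, the latter below the 17422 and 25757 CPM of the day 2 stroke male and first female. Igf1, at 0 to 16.5 CPM in all 5 day 2 libraries, stood at 194 CPM. The fatty acid binding proteins Fabp5 and Fabp3 stood at 223 and 73.4 CPM, and Ch25h at 83.9 CPM. Among interferon genes, Ifi27l2a stood at 1476 CPM, Slfn5 at 154 CPM, Oasl2 at 112 CPM and Usp18 at 80.1 CPM. Maff, a transcription factor of the immediate early list, stood at 74.4 CPM. Each of these genes had at least 20 CPM and more than 8 times the higher sham library. Time after stroke, the lack of a day 14 sham library in this comparison and the library itself cannot be told apart.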

How the results depend on the processing

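The count of 289 called genes in old microglia became 0 in the fit of the 5 old libraries, 0 in that fit with sex as a term, 789 with the year of the run code as a term and 451 with DESeq2, and lay between 0 and 349 when 1 library was left out. With 1 sham library left, that library is assumed to vary like the other groups. The count for the difference between ages, 0 in edgeR, became 1 with DESeq2 and 17 with no filter on low counts, and lay between 0 and 1 when 1 library was left out. Cd74 and H2-Aa changed direction without the sham male, and Igf1 without the sham female. With 1 library left out, the Cd74 log2 fold change, aged stroke against sham, ranged from -1.46 to 0.095, the H2-Aa log2 fold change, aged stroke against sham, from -2.17 to 0.94, and the Igf1 log2 fold change, aged stroke against sham, from -1.11 to 0.73. The cause was not tested.

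With a replicate block, 296 genes were called in old microglia and 2 for the difference, and Igf1 changed direction to 0.032. The block was the replicate number within age and sex. In the old libraries it paired the males, whose run codes differ, and the sham female with the first stroke female. The second stroke female had a block of its own, so it added nothing to the stroke contrast in that fit. The numbers did not pair the young libraries: deviations of same-numbered sham and stroke libraries correlated at 0.01, -0.23, -0.02 and 0.08.

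Depth limits the second stroke female, with 170 cells, and the young stroke library with 58. Doublet removal was not run as an alternative, since the caller marked at most 3 cells of a library.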
